A study of Caenorhabditis elegans with 6 samples.

Results

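The genes described here encode proteins of the mitochondrial ribosome of Caenorhabditis elegans, and were taken by name as every row of the counts table that begins with mrps or mrpl and a number. They were 63 of 14700 rows, 26 named for the small subunit (mrps) and 37 for the large subunit (mrpl). Transcripts were counted in descendants of the QR neuroblast, a migrating cell of the first larval stage whose lineage makes sensory neurons and an interneuron. The ΔN-BAR-1 larvae had the genotype mab-5(gk670) with the transgenes huIs166, ayIs9 and huIs179, and according to the series they carry an N-terminally truncated BAR-1 in the Q lineage. BAR-1 is a β-catenin, and truncations of this kind are used to keep canonical Wnt signalling on. The control larvae had mab-5(gk670), huIs166 and ayIs9 without huIs179, so both groups shared the mab-5(gk670) allele of a Hox gene as well as huIs166 and ayIs9. All were first-stage larvae fed for 7 hours after arrest, and each of the 3 libraries per group came from a pool of 2000 cells. The promoter of huIs179 is not in the labels. Nor do they say that each library had its own culture, and the p-values below therefore measure library-to-library spread that may be technical.

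Mitochondria keep a ribosome of their own, which makes the few proteins of the respiratory chain and ATP synthase that are encoded by mitochondrial DNA. Its proteins are encoded in the nucleus, translated in the cytosol and imported. Many descend from bacterial ribosomal proteins and keep their numbers, and others are known from mitochondria only. In C. elegans, lowering the level of mrps-5 or other members by RNA interference is known to lengthen life and to switch on the mitochondrial unfolded protein response. The comparison made here is whether the levels of these genes differed between ΔN-BAR-1 and control pools.

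Library totals were 190078 to 237644 estimated transcripts in ΔN-BAR-1 and 68431 to 254362 in control libraries, and control replicate 3 was the shallowest. Levels below are counts per 1000000 (CPM) of the scaled library size. A single count was worth 4.90 to 5.43 CPM in ΔN-BAR-1 and 4.11 to 16.5 CPM in control libraries. The targeted gene gave no check of the labels, since bar-1 had 3, 4 and 8 counts in ΔN-BAR-1 and 1, 4 and 0 counts in control libraries and a transgene with another 3′ end would not be counted as bar-1. The 7 genes chosen as Q lineage markers were all detected, with a summed 3134 to 4424 CPM in ΔN-BAR-1 and 3302 to 4776 CPM in control libraries. The 10 body wall muscle markers were all detected as well, at a summed 6006 to 20266 CPM in ΔN-BAR-1 and 8053 to 15530 CPM in control libraries. The highest of these sums holds 15580 CPM of the myosin gene unc-54 in ΔN-BAR-1 replicate 3, where every possible identifier was used and the estimate is at its ceiling. The unc-54 estimates of 1420 counts in ΔN-BAR-1 replicate 2 and 1138 counts in control replicate 2 also used nearly all identifiers. A touch neuron list (8 genes, a fate made in this lineage) had 5 of 6 tested genes called higher in ΔN-BAR-1 by edgeR. The threshold was an adjusted p of 0.05, and 1.57% of all genes tested were called higher. The list summed to 5338, 5073 and 3785 CPM in ΔN-BAR-1 and 2315, 2102 and 2981 CPM in control libraries. In the Q lineage list 1 of 7 genes tested was called higher, and unc-86 is in both lists. The part of muscle or touch neuron content in the results below was not tested. Intestinal (8 genes), hypodermal (8 genes), germline (5 genes) and pharyngeal (5 genes) markers were low, the highest sum being that of the pharynx, with at most 152 CPM in ΔN-BAR-1 and 132 CPM in control libraries.

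As a whole, transcripts for the mitochondrial ribosome differed between the groups by less than the spread between libraries. All 63 genes together had 3098, 3131 and 2732 CPM in ΔN-BAR-1 replicates 1 to 3, against 2983, 2875 and 3179 CPM in control replicates 1 to 3. The groups overlapped, and the sums averaged 2987 ± 221.5 CPM in ΔN-BAR-1 and 3012 ± 153.9 CPM in control libraries (SD, n = 3 each), a ratio of 0.992. In these bulk pools, fewer cells of a type and less RNA per cell cannot be told apart. These sums rest on 570, 616 and 558 counts in ΔN-BAR-1 and 420, 699 and 193 counts in control libraries, or 0.235% to 0.300% of all counts. The exact Poisson 95% intervals, which cover counting error only, reached from 2510 to 3389 CPM over the ΔN-BAR-1 libraries and from 2666 to 3660 CPM over the control libraries. The highest library was 1.16 times the lowest. Scaled to library size, the 6 sums varied 1.66 times as much as counting error alone (chi-square over its degrees of freedom).

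**Figure D1:**
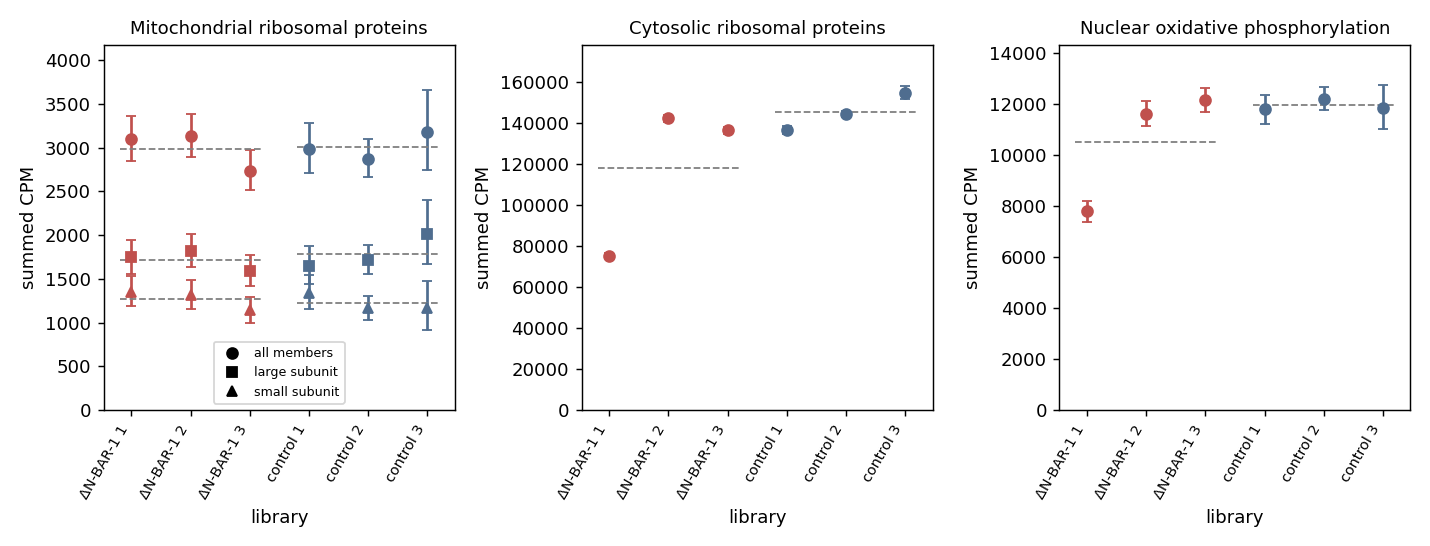
Summed CPM (y axis) in each library (x axis) for the mitochondrial ribosomal protein genes, the cytosolic ribosomal protein genes and nuclear genes of oxidative phosphorylation, with exact Poisson 95% intervals as bars and group means as dashed lines. Squares and triangles give the large and small subunit. The mitochondrial ribosomal sums lie between 2732 and 3179 CPM in all 6 libraries, while ΔN-BAR-1 replicate 1 is the lowest library in the other panels, at 75107 and 7789 CPM.

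Neither subunit stood apart. The small subunit genes summed to 1353, 1311 and 1141 CPM in ΔN-BAR-1 and 1335, 1164 and 1169 CPM in control libraries, with a ratio of the group means of 1.04, or 0.976 with upper quartile scaling. The large subunit genes summed to 1745, 1820 and 1591 CPM in ΔN-BAR-1 and 1648, 1711 and 2009 CPM in control libraries, with a ratio of 0.961. In both subunits the groups overlapped. Small subunit transcripts per large subunit transcript were 0.776, 0.721 and 0.717 in ΔN-BAR-1 and 0.810, 0.680 and 0.582 in control libraries. The mammalian counterparts of mrps-30 and mrps-18A are large subunit proteins despite their names. With these 2 genes counted in the large subunit, a choice made after seeing the data, the ratios of group means were 1.035 for the small and 0.965 for the large subunit.

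The number in a gene's name gave a second way to divide the set. The 39 genes numbered up to mrps-21 and mrpl-36, the range taken over from bacterial ribosomal proteins, summed to 1913, 2003 and 1714 CPM in ΔN-BAR-1 and 1953, 1871 and 2388 CPM in control libraries. The 24 genes with higher numbers, most of them known from mitochondria only, summed to 1185, 1128 and 1018 CPM in ΔN-BAR-1 and 1030, 1004 and 791 CPM in control libraries. The higher-numbered genes therefore made up 38.2%, 36.04% and 37.3% of the whole set in ΔN-BAR-1, against 34.5%, 34.9% and 24.9% in control libraries. These shares did not overlap, although the lowest ΔN-BAR-1 and the highest control share were close together, and the shallow control replicate 3, with 48 counts of these genes, lay farthest out. The mammalian counterparts of mrpl-47, mrps-24 and mrps-28 belong to bacterial families despite their numbers. With these 3 genes moved to the other class, a choice made after seeing the data, the shares were 33.7%, 30.8% and 29.6% in ΔN-BAR-1 and 29.3%, 29.8% and 20.7% in control libraries, and overlapped.

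Individual members were expressed at low levels and over a wide range. Of the 63, 49 were detected in all 6 libraries, 11 in 5 libraries, mrpl-24 in 1 and 2 in none. The median member averaged 36.2 CPM over the 6 libraries, and 15 members made up more than 50% of the summed mean level. Since each transcript is counted at its 3′ end, these levels in CPM were compared between genes without division by length. The median count of a member was 8, 8 and 6 in ΔN-BAR-1 and 5, 9 and 2 in control libraries.

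**Figure D2:**
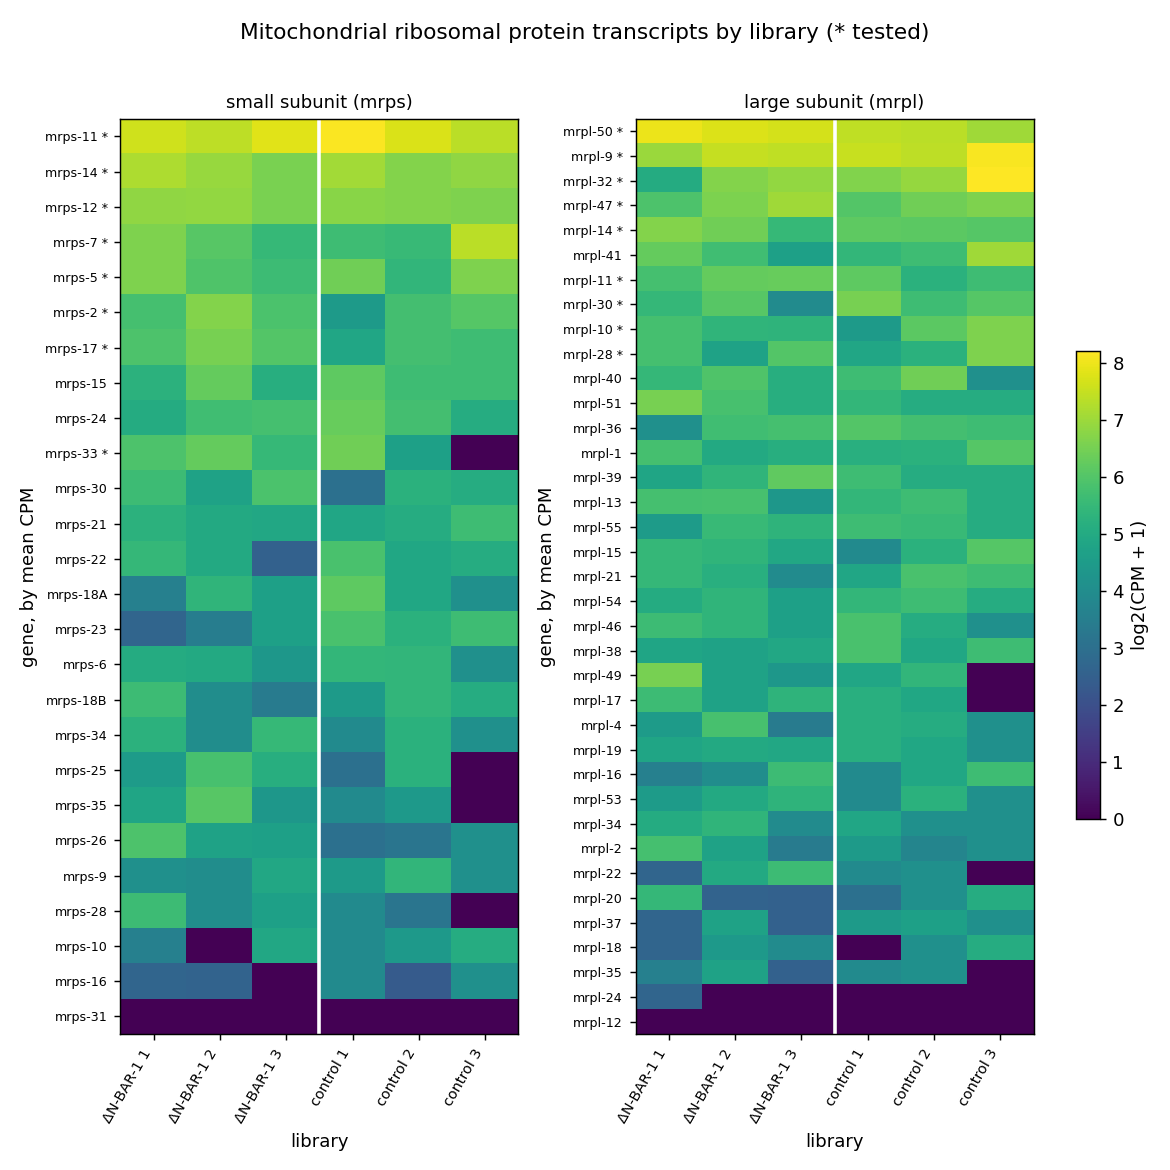
Level of each of the 63 genes (rows, ordered by mean CPM within the small and the large subunit) in each library (columns), coloured by log2(CPM + 1), with an asterisk on the 17 genes tested. Most genes keep a similar shade across both groups, control replicate 3 shows the most zeros, and mrpl-12 and mrps-31 are at 0 throughout.

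At the top of the order, mrps-11 (a protein of the small-subunit platform in bacteria) averaged 209 CPM over all libraries, mrpl-50 (a mitochondria-specific protein of the large subunit) 190 CPM and mrpl-9 (the counterpart of a protein that reaches out from the bacterial large subunit) 185 CPM. These 3 did not differ beyond their spread of 44.6, 42.6 and 51.2 CPM (SD, n = 6 libraries). Next came mrpl-32 at 128 CPM, mrps-14 (a protein of the small-subunit head) at 119 CPM and mrps-12 (a protein of the decoding centre) at 105 CPM, which also lay within the spread of their neighbours. These 6 genes held 31.2% of the summed mean level.

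The evenness between libraries differed from gene to gene. Transcripts of mrps-12 stood at 114, 117 and 93.0 CPM in ΔN-BAR-1 and 106.5, 103 and 98.8 CPM in control libraries, the narrowest span of these 6 genes. Those of mrps-14 stood at 147, 122 and 93.0 CPM in ΔN-BAR-1 and 135, 103 and 115 CPM in control libraries. For both genes the groups overlapped, and the counts scattered no more than counting error would give (chi-square over degrees of freedom 0.143 and 0.645). In mrpl-32 this ratio was 6.06, the highest among the members. Its counterpart in yeast and mouse is known as a substrate that a mitochondrial protease must cut before the ribosome assembles. It stood at 32.6, 102 and 118 CPM in ΔN-BAR-1 and at 99.4, 119 and 296 CPM in control libraries. A single low library (ΔN-BAR-1 replicate 1) and a single high one (control replicate 3) set it apart, and the other 4 lay close together. Over the 17 members tested the median of this ratio was 1.42, and over all 3447 genes tested it was 2.95. The ratio can rise with a gene's count, and the members tested had only 47 to 218 counts in all. These medians were not matched for count, so they do not show the members to be more even than other genes.

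**Figure D3:**
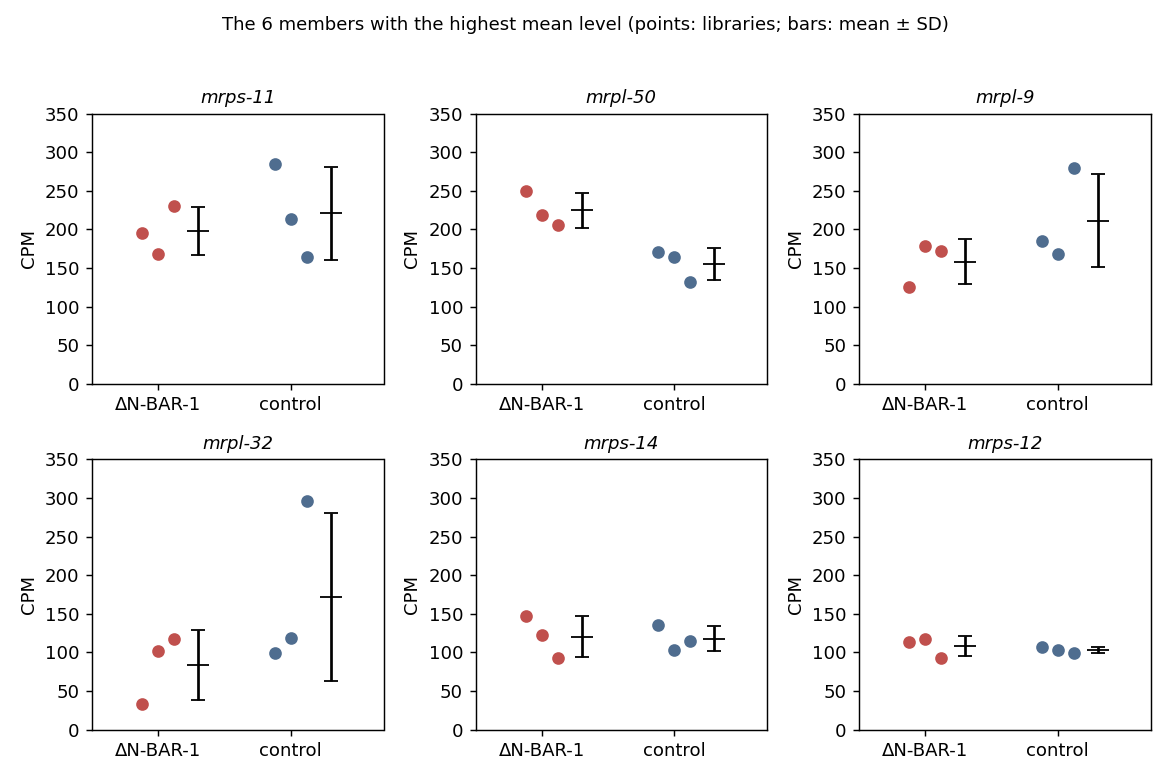
CPM in each library (points) for the 6 members with the highest mean level, with the mean and SD of each group beside them (n = 3 each). The groups overlap for every gene shown except mrpl-50, whose ΔN-BAR-1 libraries lie between 206 and 250 CPM, above the control libraries at 132 to 170 CPM.

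At the other end, mrpl-12 and mrps-31 had 0 counts in every library, which allows a level of up to 2.91 CPM (3 counts over all libraries together, counting error only). The mammalian counterpart of mrpl-12 belongs to the stalk that recruits translation factors. The gene mrpl-24 had 1 count in all, and mrps-16 had 6. The mitochondria-specific mrpl-37 had 1, 5 and 1 counts in ΔN-BAR-1 and 3, 6 and 1 counts in control libraries, too few to be tested. For 44 of the 63 genes the mean level was below 49.4 CPM, which is what 3 counts are worth in control replicate 3.

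Tested gene by gene with edgeR's quasi-likelihood test, 0 of 17 members were called, against a background of 1.65% of the 3447 genes tested (1.57% higher and 0.087% lower). The filter on low counts had removed the other 46 members, so this says nothing of most of the set. At an unadjusted p below 0.05, where the background was 11.6%, there were again 0 of 17 by edgeR. After adjustment, DESeq2 and limma-voom each called 0 members, beside 61 and 22 of all 3447 genes. DESeq2 gave no adjusted p for mrpl-30, mrpl-10, mrpl-11, mrps-33, mrps-2 or mrps-17, so its result does not cover them. The smallest adjusted p among the members was 0.571 by edgeR (unadjusted p = 0.1001), for mrpl-32. Of the 17 log2 fold changes (ΔN-BAR-1 over control), 10 were above 0 and 7 below, with a median of 0.04 (−0.049 with upper quartile scaling) beside a median of 0.0 over all genes tested.

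Among small subunit genes tested, the largest difference was that of mrps-17, whose bacterial counterpart binds ribosomal RNA early in assembly. It stood at 59.8, 91.5 and 63.6 CPM in ΔN-BAR-1 and 28.4, 53.5 and 49.4 CPM in control libraries (log2 fold change 0.70 ± 0.55 SE, edgeR adjusted p = 0.722). Its groups did not overlap, but the nearest libraries, at 59.8 and 53.5 CPM, were close. The gene mrps-2 had 54.3, 102 and 58.8 CPM in ΔN-BAR-1 and 21.3, 53.5 and 65.9 CPM in control libraries (0.67 ± 0.57, edgeR adjusted p = 0.757), and stood at 0.29 without control replicate 1 and 0.30 without ΔN-BAR-1 replicate 2. The mitochondria-specific mrps-33 was the member tested with the widest error, at 59.8, 76.2 and 44.1 CPM in ΔN-BAR-1 and 85.2, 24.7 and 0 CPM in control libraries (0.55 ± 0.67). Its value rested on single libraries, at 1.69 without control replicate 1, 0.17 without control replicate 2, 0.20 without control replicate 3 and 0.30 without ΔN-BAR-1 replicate 2, and none of these passed the test.

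The other small subunit genes tested lay nearer to 0. The longevity gene mrps-5 had 97.8, 61.0 and 49.0 CPM in ΔN-BAR-1 and 85.2, 41.1 and 98.8 CPM in control libraries (−0.01 ± 0.59), with wide overlap. The head protein gene mrps-7 stood at −0.09 ± 0.58, between −0.52 and 0.53 when single libraries were left out. For the most abundant member, mrps-11, the libraries had 196, 168 and 230 CPM in ΔN-BAR-1 and 284, 214 and 165 CPM in control (−0.19 ± 0.35, edgeR adjusted p = 0.914). The values of mrps-12 and mrps-14 were 0.06 ± 0.41 and 0.04 ± 0.42.

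Among large subunit genes, mrpl-50 was the abundant one whose groups did not overlap. It had 250.0, 219 and 206 CPM in ΔN-BAR-1 and 170.4, 164 and 132 CPM in control libraries, averaging 225 ± 22.8 and 156 ± 20.8 CPM (SD, n = 3 each). All 3 ΔN-BAR-1 libraries were higher, but the difference did not pass the test (log2 fold change 0.50 ± 0.35 SE, edgeR adjusted p = 0.682). Together with mrps-17 it made 2 of 17 members whose groups did not overlap, or 11.8%, against a background of 17.4% of all genes tested. The value of mrpl-50 ran from 0.42 to 0.54 when single libraries were left out.

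Other large subunit genes went either way. The stalk-base gene mrpl-11, whose bacterial counterpart sits where translation factors bind, had a log2 fold change of 0.44 ± 0.54, and mrpl-47, whose mammalian counterpart lies by the exit tunnel, one of 0.25 ± 0.46. On the other side, mrpl-32 stood at −0.89 ± 0.52, mrpl-30 at −0.71 ± 0.61, the stalk gene mrpl-10 at −0.40 ± 0.60 and mrpl-9 at −0.36 ± 0.38. The libraries of mrpl-30 had 43.5, 66.1 and 14.7 CPM in ΔN-BAR-1 and 92.3, 49.4 and 65.9 CPM in control, and overlapped. The value of mrpl-32 rested on both libraries named above, at −0.38 without control replicate 3 and −0.47 without ΔN-BAR-1 replicate 1. It was further from 0, at −1.20 without control replicate 1 and −1.22 without ΔN-BAR-1 replicate 3, and in both of these fits its unadjusted p by edgeR was below 0.05 and its adjusted p was not. Without single libraries mrpl-30 ran from −1.27 to −0.34, mrpl-10 from −0.87 to −0.11, mrpl-11 from 0.13 to 0.73 and mrpl-47 from −0.08 to 0.50. The remaining members tested, mrpl-14 and mrpl-28, stood at 0.16 ± 0.50 and 0.03 ± 0.62.

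**Figure D4:**
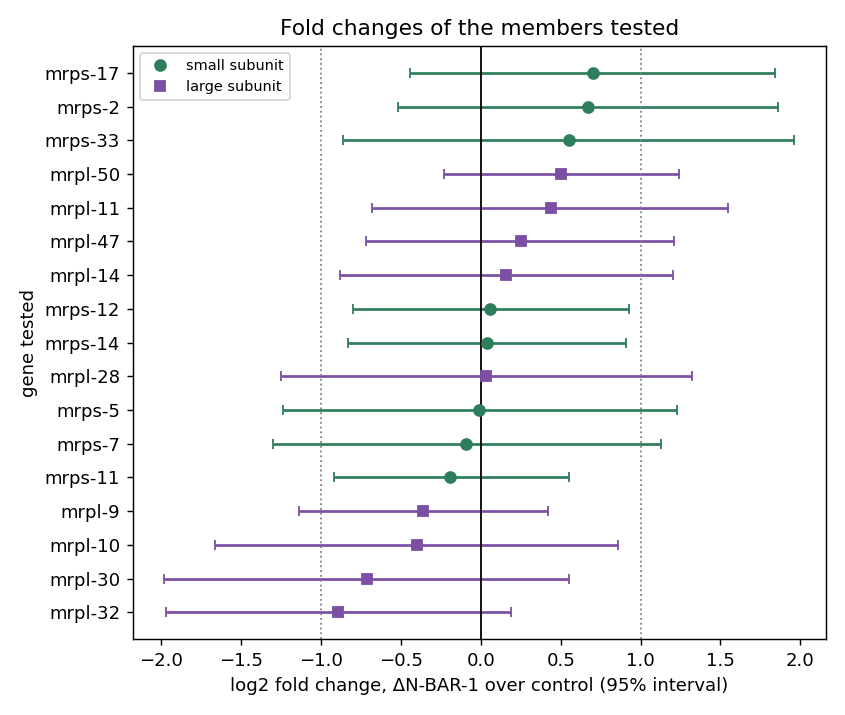
Log2 fold change of ΔN-BAR-1 over control (x axis) with its 95% interval for the 17 members that passed the filter (y axis), circles for the small and squares for the large subunit, dotted lines at −1 and 1. All 17 intervals include 0, and 3 of them lie wholly between −1 and 1.

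The size of the errors sets what these values can say. The median standard error of the 17 members was 0.54, against 0.44 over all genes tested. All 17 of the 95% intervals (edgeR) included 0. Those of mrps-11, mrps-12 and mrps-14 lay within a 2-fold change in either direction (log2 change between −1 and 1). Of the 17, 7 excluded a 2-fold rise, 10 excluded a 2-fold fall, and all 17 excluded a log2 change of 2 in either direction.

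Below the filter, a few small subunit genes had groups that did not overlap in CPM. They are named here after their values were seen, and were 3 of the 46 members below the filter. The gene mrps-23 had 1, 2 and 5 counts in ΔN-BAR-1 and 8, 9 and 3 counts in control libraries, which is 5.43, 10.2 and 24.5 CPM in ΔN-BAR-1 and 56.8, 37.02 and 49.4 CPM in control libraries. Opposite to it, mrps-26 had 11, 5 and 5 counts in ΔN-BAR-1 and 1, 2 and 1 counts in control libraries, and mrps-28 had 9, 3 and 5 counts in ΔN-BAR-1 and 2, 2 and 0 counts in control libraries. Over all 63 members 5 were apart in this sense, as were 10.4% of the 10747 genes detected in any library. With no filter, edgeR gave mrps-23 a log2 fold change of −1.73 ± 0.83 (adjusted p = 0.660), mrps-26 one of 1.86 ± 0.98 (adjusted p = 0.745) and mrps-28 one of 1.62 ± 1.04 (adjusted p = 0.754). In that fit 0 of 61 members detected were called, beside 101 of all 10747 genes. At an unadjusted p below 0.05 by edgeR there was 1, mrps-23, against a background of 6.83% of the 10747 genes in that fit.

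Position in the genome, which the choice by name did not use, was read from the annotation of WBcel235 for 62 of the 63 genes, mrpl-14 being the exception. For 47 of them the next protein-coding gene on at least 1 side lay on the same strand. Neither this count nor the overlaps below were counted over all genes, so they do not set these genes apart. The members mrps-2 and mrpl-4 are neighbours on the same strand. With 4, 11 and 2 counts in ΔN-BAR-1 and 5, 8 and 1 counts in control libraries, mrpl-4 fell below the filter. A protein-coding gene overlapped 4 members on the same strand and 14 on the other strand, among them mrps-11 (with inx-11), mrpl-30 (with strm-1) and mrps-23 (with prp-40). How the authors' counting treated strand is not given in the sources used here. Counts of these genes may therefore include reads of their partners or lack reads of their own. Of the members with the fewest counts, mrpl-12 (with W09D10.5), mrpl-24 (with C09D4.1) and mrps-16 (with ilcr-2, same strand) had such an overlap, and mrps-31 had none. Whether overlap lowered their counts was not tested.

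Other ribosomal and mitochondrial genes varied between libraries in another way. The 77 cytosolic ribosomal protein genes summed to 75107, 141997 and 136166 CPM in ΔN-BAR-1 and 136304, 144320 and 154432 CPM in control libraries. ΔN-BAR-1 replicate 1 was thus low for the cytosolic ribosome, at 7.27% of its counts against 11.7% to 13.8% in the other 5 libraries, but not for the mitochondrial one. Transcripts of mitochondrial ribosomal protein genes per 1000 cytosolic ones were 41.2, 22.1 and 20.1 in ΔN-BAR-1 and 21.9, 19.9 and 20.6 in control libraries. The ratio of group means was 0.812 for the cytosolic genes, and 0.959 without ΔN-BAR-1 replicate 1, while for the mitochondrial genes it was 0.992 and 0.973. This difference between the sets rests on 1 library, and no test of it is given.

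Nuclear genes of oxidative phosphorylation, whose products join those made by mitochondrial ribosomes, were also low in that library. The 30 genes summed to 7789, 11615 and 12157 CPM in ΔN-BAR-1 and 11789, 12207 and 11858 CPM in control libraries. Of 26 tested, 0 were called, 23 were below 0 and the median log2 fold change was −0.26. At an unadjusted p below 0.05 by edgeR there was 1, beside 11.6% of all genes tested. The ratio of group means was 0.88, and 0.995 without ΔN-BAR-1 replicate 1. The complex III core gene ucr-2.2 had 81.5, 102 and 53.9 CPM in ΔN-BAR-1 and 156, 132 and 165 CPM in control libraries (−0.91 ± 0.43, edgeR adjusted p = 0.415). The groups of ucr-2.2 did not overlap, as in 4 of the 26 genes tested in the list (15.4%), beside 17.4% of all genes tested. The ATP synthase β-subunit gene atp-2 stood at −0.53 ± 0.31 (edgeR adjusted p = 0.589).

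Genes that act with the mitochondrial ribosome were few among those tested, and 0 of them passed edgeR's test, at an adjusted or an unadjusted p below 0.05. The elongation factor gene tufm-1 was the only 1 of 7 mitochondrial translation factors that passed the filter. It had 130.5, 25.4 and 93.0 CPM in ΔN-BAR-1 and 106.5, 49.4 and 65.9 CPM in control libraries (log2 fold change 0.18 ± 0.56), with wide overlap. The gene dap-3, which encodes a mitochondrial ribosomal protein of the small subunit under another name, was too low to be tested, with 15, 4 and 3 counts in ΔN-BAR-1 and 1, 8 and 1 counts in control libraries. Among 12 mitochondrial tRNA synthetase genes 2 were tested, the cysteinyl gene cars-2 (0.23 ± 0.38) and the glutamyl gene ears-2 (−0.21 ± 0.72). The value of ears-2 was −1.02 without ΔN-BAR-1 replicate 1, −0.56 without control replicate 3 and 0.15 without ΔN-BAR-1 replicate 2, and that of tufm-1 ran from −0.27 without ΔN-BAR-1 replicate 1 to 0.56 without ΔN-BAR-1 replicate 2. Of 4 genes for maintenance and transcription of mitochondrial DNA only hmg-5, the homologue of the packaging factor TFAM, was tested (−0.63 ± 0.50, edgeR adjusted p = 0.724).

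The list for the mitochondrial unfolded protein response and proteases had 5 of 9 genes tested and 0 called, with 3 above 0, 2 below and a median log2 fold change of 0.29. The chaperone gene hsp-60 was above 0 (0.35 ± 0.45). Those below 0 were hsp-6 and atfs-1. The reporter gene hsp-6, a mitochondrial chaperone of the Hsp70 family, had 103, 168 and 137 CPM in ΔN-BAR-1 and 213, 136 and 214 CPM in control libraries (−0.42 ± 0.39, edgeR adjusted p = 0.788). Its groups overlapped. The transcription factor gene of the response, atfs-1, stood at −0.32 ± 0.38. The list summed to 685, 702 and 823 CPM in ΔN-BAR-1 and 831, 596 and 856 CPM in control libraries. Of 14 genes for protein import and prohibitins 8 were tested and 0 were called, with 5 above 0, 3 below and a median of 0.16. The 2 with the smallest p were the prohibitin genes phb-1 at −0.64 ± 0.39 and phb-2 at −0.48 ± 0.39. For phb-1 the libraries had 97.8, 122 and 162 CPM in ΔN-BAR-1 and 178, 164 and 280.0 CPM in control. The phb-2 libraries had 125, 132 and 127 CPM in ΔN-BAR-1 and 178, 136 and 247 CPM in control. In both genes the groups did not overlap, but the nearest libraries almost met. They were 2 of the 8 genes tested in the list, beside 17.4% of all genes tested.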

How the data were processed

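Per the labels' protocols, libraries were made with CEL-seq and CEL-seq2, which count transcripts at their 3′ ends. The authors deposited estimated counts per gene, not normalised between libraries; the sources used here do not give the aligner, annotation, build or strand setting. Values followed the correction for chance collisions among 256 molecular identifiers, with 99.94% to 99.99% of them coming back to whole identifiers within 0.02. The highest member value came from 47 identifiers, far from saturation. Estimated counts were rounded and tested with edgeR 4.0.16 in R 4.3.3 (TMM, filterByExpr with min.count 10 and min.total.count 15, robust quasi-likelihood F test, two-sided, group as the only term, 6 libraries, Benjamini-Hochberg over all genes tested, threshold 0.05). CPM use the TMM-scaled size over genes that passed the filter, and standard errors come from the F statistics. Sums over all 63 members include those below the filter and carry no test. Alternatives included DESeq2 1.42.0 and limma 3.58.1. Steps were tested on simulated data. Same-group libraries had a chi-square over degrees of freedom of 2.32 to 10.7, so none was counted as a repeat. The members, gene lists and rule for named genes (the 6 highest and 6 lowest fold changes, the 6 highest levels, mrps-5, mrpl-12, mrpl-37 and the 2 tested genes with the smallest p per related list) were chosen with earlier results of these data known. Other genes were named after their values were seen.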

Additional observations from a re-analysis of the deposited data

How the results depend on the processing

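In all 14 alternatives 0 members were called, and the smallest adjusted p of a member was 0.391 (mrpl-32 without ΔN-BAR-1 replicate 3, edgeR). DESeq2 gave no adjusted p for several named members, as listed above. Of 192 values of named members under alternatives, 0 passed the test, and 6 of the 15 named members that were tested changed sign in at least 1, none of them called. The ratio of summed levels ran from 0.933 (upper quartile scaling) to 1.01 (without control replicate 3). The median log2 fold change was −0.049 with upper quartile scaling, −0.154 with the stricter filter (min.count 30, 3 members tested) and 0.191 with limma-voom, and ran from −0.25 (control replicate 2 left out) to 0.102 without single libraries, where 19 to 27 members passed the filter. Over the same 17 members, an alternative added after seeing the data, it ran from −0.106 to 0.163. Over all genes (57 in the report), limma-voom called 22, the stricter filter left 35 calls, testing every detected gene gave 101, and leaving out single libraries gave 16 to 121. With the replicate block, 19 were called, 0 of them members. Same-numbered libraries correlated at −0.138, −0.0819 and −0.0165 in their deviations from the group means, which gave no sign of pairing. The cause of these shifts was not tested. Without control replicate 3, the shallowest library, 27 of the 63 members passed the filter and 0 were called, beside 26 of all 4091 genes in that fit.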
